A study of Mus musculus with 9 samples.

Results

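Binding of XBP1 around Myc and Ccnd1 was described from the XBP1 peaks deposited for regenerating mouse liver. The Myc window covered 60 kb of chromosome 15 (61790001 to 61850000, mm9) and the Ccnd1 window 60 kb of chromosome 7 (152090001 to 152150000, mm9). A peak was taken where its midpoint lay in a window, whatever its score. The windows themselves were chosen with earlier results of these data known. The windows held 26 of the 64078 peaks of the 8 lists, 7 of them at Myc and 19 at Ccnd1. Merging peaks that overlapped between lists left 4 sites at Myc and 6 at Ccnd1.

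The livers came from wildtype C57Bl6-J mice, with 8 weeks given as the age at operation. For basal livers no time after an operation is given. XBP1 was mapped by chromatin immunoprecipitation and sequencing (ChIP-seq) with the antibody anti-XBP1 M-186, with 1 library per condition. In 3 libraries the liver carried shXBP1, a short hairpin RNA against XBP1 delivered by adenovirus 7 days before, and these were basal liver, liver 6 h after partial hepatectomy and liver 48 h after partial hepatectomy. The other 5 were basal liver and liver 6 h and 48 h after partial hepatectomy or after a sham operation. Clodronate liposomes, which deplete phagocytes, were given before the virus, and it is not stated in the labels if livers without shXBP1 were given them or the control virus, or if animals were pooled.

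MYC is a transcription factor that drives cell growth and entry into the cell cycle. Ccnd1 encodes cyclin D1, the regulatory subunit of the kinases CDK4 and CDK6, which start the passage through G1 by phosphorylating the retinoblastoma protein. In regenerating rodent liver Myc is known as an early gene and Ccnd1 as a gene induced later, before hepatocytes enter DNA synthesis. XBP1 is an effector of the unfolded protein response, made active when the stress sensor IRE1 splices the XBP1 messenger RNA.

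The lists differed in length: 177, 4325 and 102 peaks in the silenced basal, 6 h and 48 h livers, and 2482 to 23087 peaks in the unsilenced ones. The depth of sequencing of each library is not stated in the sources used here, so fewer peaks cannot be told apart from a shallower library. With whole liver as the material, occupancy in fewer cells cannot be told apart from weaker occupancy per cell. With 1 library per condition no difference has a replicate check, no p-value was computed, and the values below describe these libraries. The score of a peak is the authors' own value, taken here as the negative log10 of a p-value, and was used to order peaks within a list (rank 1 is the highest score) and to set a threshold within it. The scale may differ between lists, so a score describes its own peak only.

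The Myc window carried XBP1 peaks in both 6 h livers and in none of the other 6 lists. The library 6 h after hepatectomy had 3 peaks there and the library 6 h after the sham operation had 4. Basal liver, both 48 h livers and all 3 silenced livers had 0. The 6 h lists were the longest, and with each longer list reduced to its 2482 best-scoring peaks, as many as basal liver had, Myc had 0 peaks at 6 h too. The Ccnd1 window carried peaks in all 5 unsilenced lists and in 1 silenced list. The basal list had 1 peak in it. At 6 h the hepatectomy list had 6 peaks and the sham list 5, and at 48 h the hepatectomy list had 4 and the sham list 2. Among the 2482 highest-scoring peaks these counts were 2 for hepatectomy and 1 for sham at 6 h and 1 for each at 48 h. This cut removes more of a longer list, and the cause of the differences in number was not tested. In silenced liver it held 1 peak 6 h after hepatectomy, and 0 in the basal and the 48 h list. Ccnd1 therefore had more peaks than Myc in every list with a peak in either window.

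**Figure D1:**
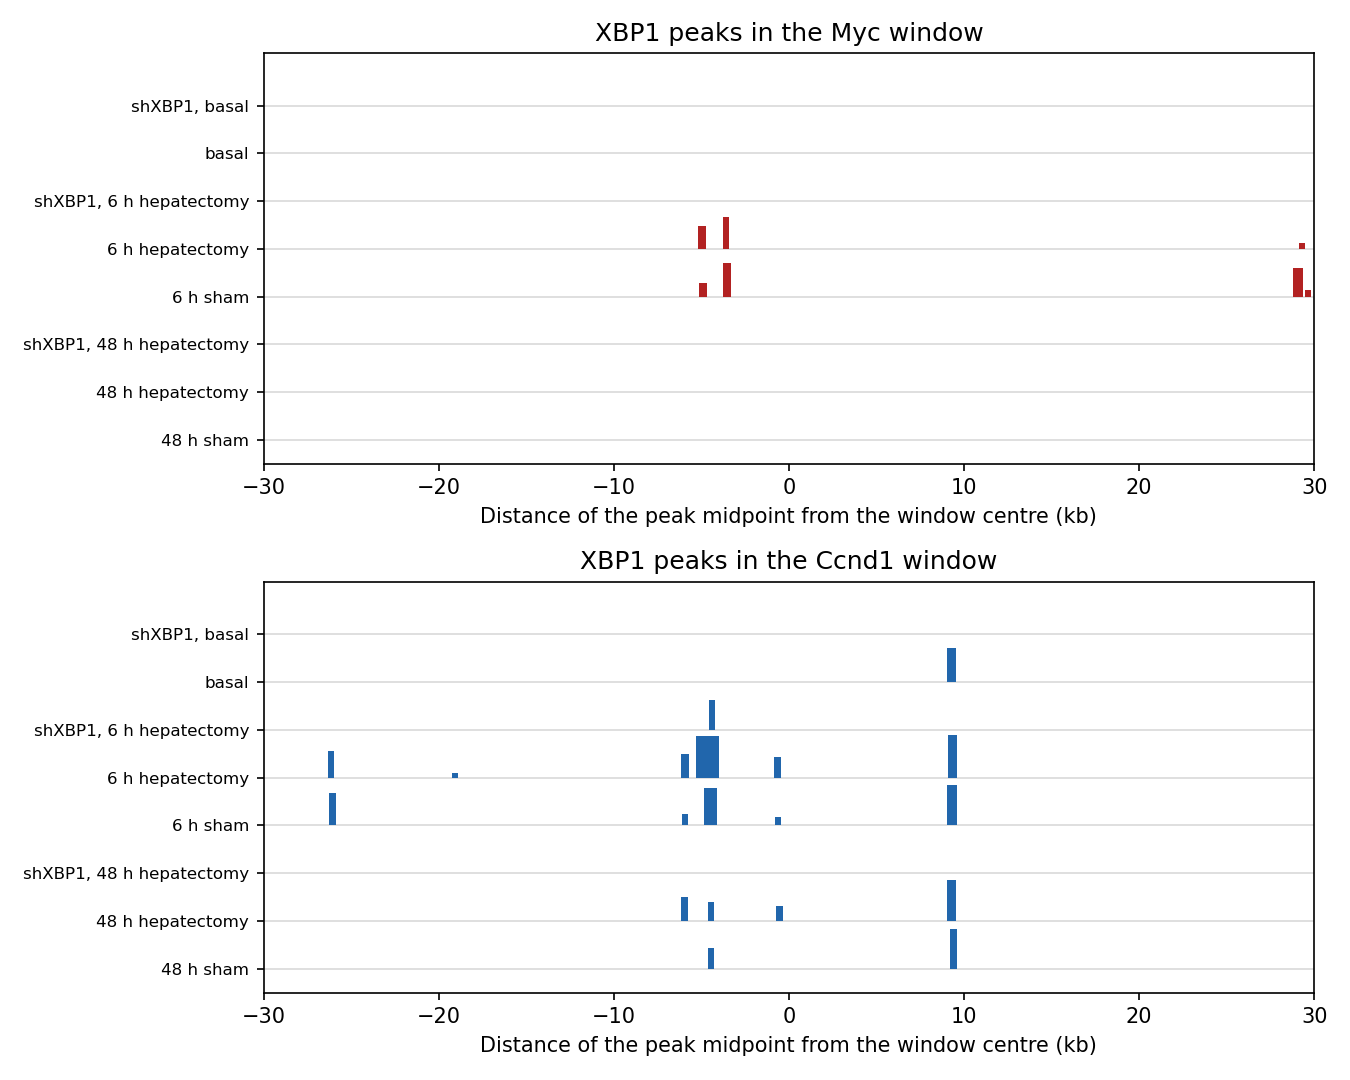
XBP1 peaks in the Myc window (upper panel) and the Ccnd1 window (lower panel), 1 row per list. The horizontal axis is the distance of the peak midpoint from the window centre in kb. Each bar is 1 peak, as wide as the peak (at least 0.35 kb, so that narrow peaks stay visible) and taller the higher the peak ranks within its own list, with a small constant added. Myc has bars only in both 6 h rows, 3 after hepatectomy and 4 after sham, whereas the Ccnd1 site 9 kb right of the centre has a bar in all 5 unsilenced rows.

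The background of each list was read from 43875 windows of 60 kb laid end to end over the chromosomes. At 6 h, 23.7% of these windows held at least 1 peak in the hepatectomy list and 24.2% in the sham list. The basal share was 4.97%, and the 48 h shares were 11.7% in the hepatectomy list and 8.30% in the sham list. In silenced livers it was 0.278% in basal liver, 8.04% at 6 h and 0.194% at 48 h. An empty window was thus the usual state in every list, and the 0 at Myc outside 6 h is what most windows showed.

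The number of peaks at Myc was above that of most windows at 6 h. Of all windows, 6.41% held at least 3 peaks 6 h after hepatectomy, and 3.97% held at least 4 peaks 6 h after sham. The number at Ccnd1 lay further out: 1.11% of windows held at least 6 peaks 6 h after hepatectomy and 2.32% held at least 5 after sham. At 48 h, 0.280% of windows held at least 4 hepatectomy peaks and 1.70% at least 2 sham peaks. These shares describe where both windows lie among all windows, gene-poor ones included, and they are no test.

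**Figure D2:**
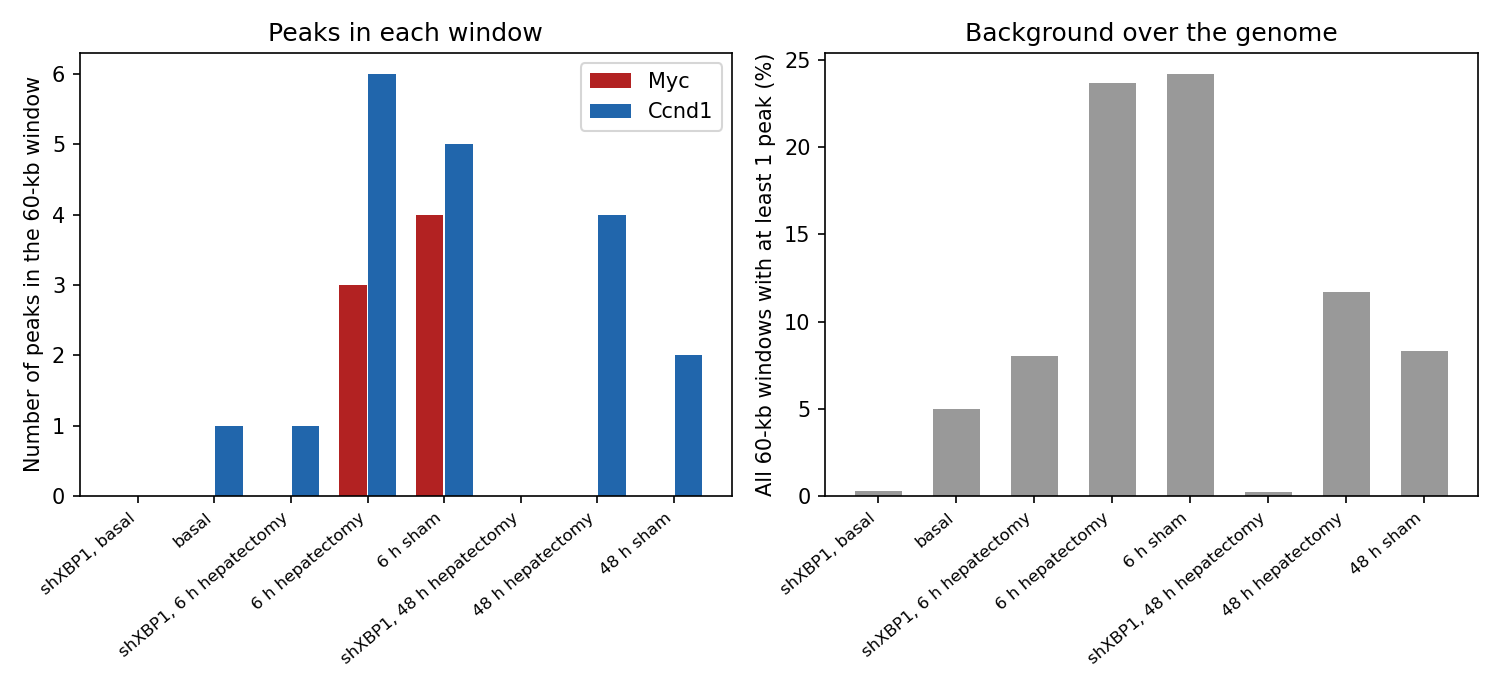
Number of XBP1 peaks in the Myc and Ccnd1 windows in each list (left, bars) and percent of all 43875 windows of 60 kb with at least 1 peak in that list (right, bars). Both windows hold most peaks at 6 h, where the share of windows with a peak is also highest, at 23.7% for hepatectomy and 24.2% for sham.

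The time pattern that Myc showed in the whole lists was common among windows. Of all windows, 8.36% had a peak in both 6 h lists and none in the basal list and both 48 h lists. This was 39.8% of the 9217 windows with a peak in both 6 h lists. The pattern at Ccnd1, a peak in all 5 unsilenced lists, was found in 4.05% of all windows and in 19.3% of those with a peak in both 6 h lists. In 3.18% of all windows a peak stood in all 5 unsilenced lists and the silenced 6 h list and in neither of the other 2 silenced lists, as at Ccnd1. These were 1394 of the 1777 windows with a peak in all 5 unsilenced lists, so most such windows showed it.

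At Myc, 2 of the 4 sites lay close together and left of the window centre. The Myc site with the best ranks lay at 61816220 to 61816685. The peak there had a score of 29.08 and rank 6958 of 22071 after hepatectomy (31.5% of the list), against 25.42 and rank 6141 of 23087 after sham (26.6%). Its midpoint differed by 45.5 bp between both lists. The neighbouring site, 900 bp before it at 61814817 to 61815319, had a score of 18.14 and rank 11641 after hepatectomy (52.7%), against 11.16 and rank 17342 after sham (75.1%). The first of these sites thus stood in deciles 4 and 3 and the neighbouring one in deciles 6 and 8, and none of the 7 Myc peaks reached the first 26% of its list.

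The other Myc sites lay near the right end of the window. At 61848770 to 61849479 the hepatectomy peak had a score of 7.77 and rank 21171 (95.9%), against 18.72 and rank 9198 (39.8%) for the sham peak, and their midpoints lay 249.5 bp apart. This is the Myc site whose ranks differed most between both operations. The last site, at 61849518 to 61849780, was a sham peak alone, with a score of 7.97 and rank 21669 (93.9%), and began 38 bp after the end of the site before it. Ranks from different lists are set side by side here and cannot show whether occupancy differed between the operations.

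The window boundary bears on the pattern at Myc. In a window of 120 kb with the same centre, 3 further peaks appeared 6 h after hepatectomy and 2 after sham, and 1 appeared 48 h after hepatectomy. That 48 h peak lay at 61875431 to 61875652, 25.4 kb beyond the window, with a score of 11.53 and rank 3770 of 7212. It overlapped a peak 6 h after hepatectomy (61875374 to 61875727, score 24.41) and a peak 6 h after sham (61875271 to 61875725, score 12.19). The nearest peak of basal liver and of the 48 h sham liver lay 237 kb beyond the window, and the nearest of the silenced 6 h liver 60.8 kb beyond it. The absence of a 48 h hepatectomy peak at Myc therefore holds for the 60-kb window and not for the 120-kb one.

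At Ccnd1, the site of cyclin D1 with the highest score in every unsilenced list lay 9 kb right of the window centre, at 152129006 to 152129621. Its score in basal liver was 21.89, rank 610 of 2482 (24.6% of the list). At 6 h it was 122.13 after hepatectomy, rank 1030 (4.67%), against 48.26 and rank 2056 after sham (8.91%). At 48 h it was 35.1 after hepatectomy, rank 575 (7.97%), against 39.93 and rank 532 after sham (11.5%). The 5 midpoints lay within 105.5 bp of each other. It was the single Ccnd1 site of basal liver, and silenced liver had no peak on it at any time.

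A second site, at 152114699 to 152115999, carried a peak in every operated list except that of the silenced 48 h liver. In silenced liver 6 h after hepatectomy it had a score of 17.62, rank 1573 of 4325 (36.4%). In unsilenced liver 6 h after hepatectomy it had a score of 91.34, rank 1551 of 22071 (7.03%), against 32.72 and rank 4065 after sham (17.6%). At 48 h it had a score of 10.42 after hepatectomy, rank 4461 (61.9%), against 12.58 and rank 2732 after sham (59.1%). The 6 h hepatectomy peak was 1301 bp wide, at place 328 of its list by width, against 749 bp after sham. The peak stood in the top decile of its list in 1 of these 5 lists, that of 6 h hepatectomy; since the lists differ in length, this does not show whether occupancy changed.

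The 2 sites on either side of it were found in the same 3 lists, those of 6 h hepatectomy, 6 h sham and 48 h hepatectomy. At 152113842 to 152114298 the score was 18.5 (rank 50.1% of the list) for hepatectomy and 10.08 (81.7%) for sham at 6 h, and 11.88 (51.6%) for hepatectomy at 48 h. At 152119137 to 152119556 the score was 16.05 (57.7%) for hepatectomy and 8.93 (88.6%) for sham at 6 h, and 9.35 (72.2%) for hepatectomy at 48 h. Neither site had a peak in basal, silenced or 48 h sham liver. Their ranks lay between 50.1% and 88.6% of a list, which places them in its lower part.

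The remaining Ccnd1 sites were present at 6 h alone. The site at 152093711 to 152094134 had a score of 20.73 after hepatectomy, rank 9915 (44.9%), against 23.6 and rank 6709 after sham (29.1%). The site at 152100803 to 152101061 was called after hepatectomy only, with a score of 6.86 and rank 21768 of 22071, and its 259 bp equal the shortest peak of that list. It is the Ccnd1 peak closest to the end of its list, and a threshold of 2 times the lowest score of the list removes it.

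**Figure D3:**
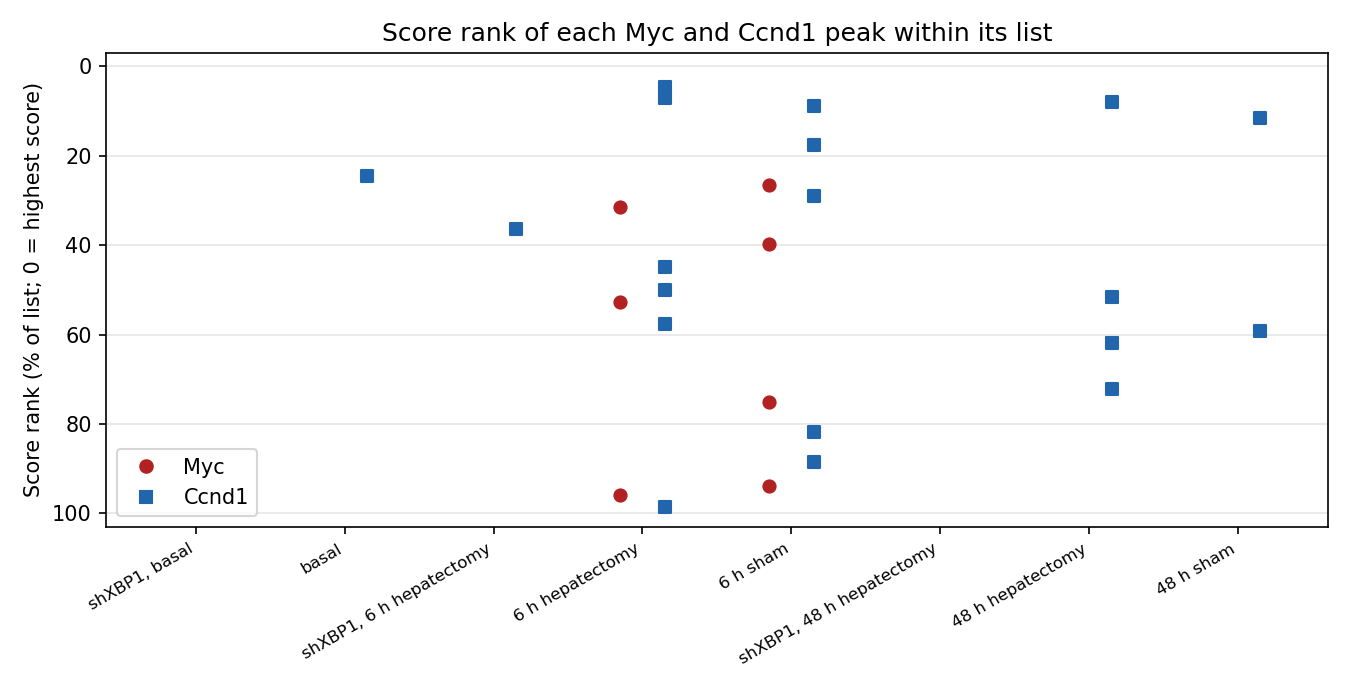
Score rank of each Myc and Ccnd1 peak within its own list, as a percent of the list, with the highest scores at the top; each point is 1 peak and lists without a point held no peak in either window. The best Ccnd1 peak stands at 4.67% 6 h after hepatectomy and at 8.91% 6 h after sham, above the best Myc peak at 31.5% and 26.6%.

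The best Ccnd1 peak was also set against all windows, empty ones included, in the 6 lists where Ccnd1 had a peak. The share of windows with a peak ranked as high or higher was 1.43% in basal liver. The 6 h hepatectomy list gave 2.26% and the 6 h sham list 4.31%, and the 48 h lists gave 1.31% for hepatectomy and 1.20% for sham. In silenced liver at 6 h it was 3.49%. Most windows were empty: the share was 1531 of the 3528 windows with a peak in that silenced list, and 627 of 2182 in basal liver. For Myc the hepatectomy list gave 11.6% and the sham list 10.5%. The best peak at Ccnd1 thus ranked above that at Myc in both 6 h lists, the only lists with a peak at both genes.

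The sham operation serves as control for the surgery. At 6 h most sites of both genes were shared between the operations. At Myc 3 of 3 hepatectomy peaks had a counterpart after sham, and 3 of 4 sham peaks had one after hepatectomy. At Ccnd1 this held for 5 of 6 hepatectomy peaks and 5 of 5 sham peaks. Over the whole lists, 76.9% of hepatectomy peaks and 74.1% of sham peaks had a counterpart, so being shared was the usual outcome. That share fell from 99.9% of hepatectomy peaks in decile 1 by score to 49.2% in decile 10, and from 99.6% to 41.5% of sham peaks. The members are too few, and their ranks too unlike, to be set against 1 share. Of the members, only the hepatectomy peak at 152100803 and the sham peak at 61849518 had no counterpart, and both ranked in decile 10 of their lists.

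At 48 h the comparison between operations rests on Ccnd1 alone. Of its 4 hepatectomy peaks 2 had a counterpart after sham, and 2 of 2 sham peaks had one after hepatectomy, against 47.1% and 72.5% over the whole lists. The hepatectomy peaks without one were the 2 sites on either side of the 152114699 site. A larger number after hepatectomy than after sham, as 4 against 2 here, was found in 26.6% of the 3004 windows with a peak in both 48 h lists. At 6 h the hepatectomy number was the larger, as at Ccnd1, in 19.7% of the 9217 windows with a peak in both lists. It was the smaller, as at Myc, in 24.6%. With peaks within 500 bp merged, both 6 h lists held 3 peaks at Myc and 5 at Ccnd1, so neither difference remained. Among peaks with at least 2 times the lowest score, hepatectomy and sham had 2 and 3 at Myc and 5 and 3 at Ccnd1.

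Over the hepatectomy course, the Ccnd1 peaks of the shorter lists overlapped peaks of the 6 h list by at least 1 bp. The basal peak had a counterpart at 6 h and at 48 h, as did 98.3% and 88.0% of all basal peaks. Of the 4 Ccnd1 peaks at 48 h, 1 had a basal counterpart (30.3% of all 48 h peaks). All 4 peaks of the 48 h list had a counterpart at 6 h (91.0% of all 48 h peaks). In the other direction, 4 of 6 peaks of the 6 h list were found at 48 h (28.9% of all), and 1 of 6 in basal liver (10.9% of all). Where 50% of each peak had to overlap, the number shared between 6 h and 48 h was 1 in both directions. The share of all peaks under that rule is not given here. Every Ccnd1 site of the 48 h list, as merged by overlap, had a peak at 6 h. At Myc 0 of 3 peaks of the 6 h list were found at 48 h or in basal liver.

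In the sham course at Ccnd1 the same overlap rule was used. The basal peak had a counterpart in both sham lists, as did 98.4% of basal peaks at 6 h and 82.3% at 48 h. Both 48 h sham peaks had a counterpart at 6 h (97.7% of all 48 h sham peaks), and 1 of them had one in basal liver (44.0% of all). Of the 5 sham peaks at 6 h, 2 were found at 48 h (19.4% of all) and 1 in basal liver (10.5% of all). Where 50% of each peak had to overlap, 1 Ccnd1 peak was shared between 6 h and 48 h after sham. For all sham peaks no share under that rule is given here. At Myc 0 of 4 sham peaks at 6 h were found at 48 h or in basal liver.

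The score of a 6 h peak went with its being found elsewhere, over the whole list. Of all hepatectomy peaks at 6 h in decile 1 by score, 88.8% had a counterpart at 48 h, against 14.8% in decile 6 and 5.26% in decile 10. The Myc peaks stood in deciles 4, 6 and 10, where 28.2%, 14.8% and 5.26% of all peaks had one. The Ccnd1 peaks at 152113842 and 152119137 both stood in decile 6 and both had a counterpart at 48 h by the 1 bp rule. They were 457 and 392 bp wide, and their counterparts of 208 and 190 bp were too narrow to cover 50% of them. With midpoints within 250 bp as the rule, all 4 shared Ccnd1 peaks stayed shared. The Ccnd1 peaks at 152114699 and 152129087, in decile 1, also had a counterpart at 48 h. The Ccnd1 peaks at 152093711 (decile 5, where 21.5% of all peaks had one) and 152100803 (decile 10) had none. The absence of the Myc peaks at 48 h is thus the more frequent outcome at their ranks. For Ccnd1, the peaks in decile 6 had the less frequent outcome and the others the more frequent one.

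**Figure D4:**
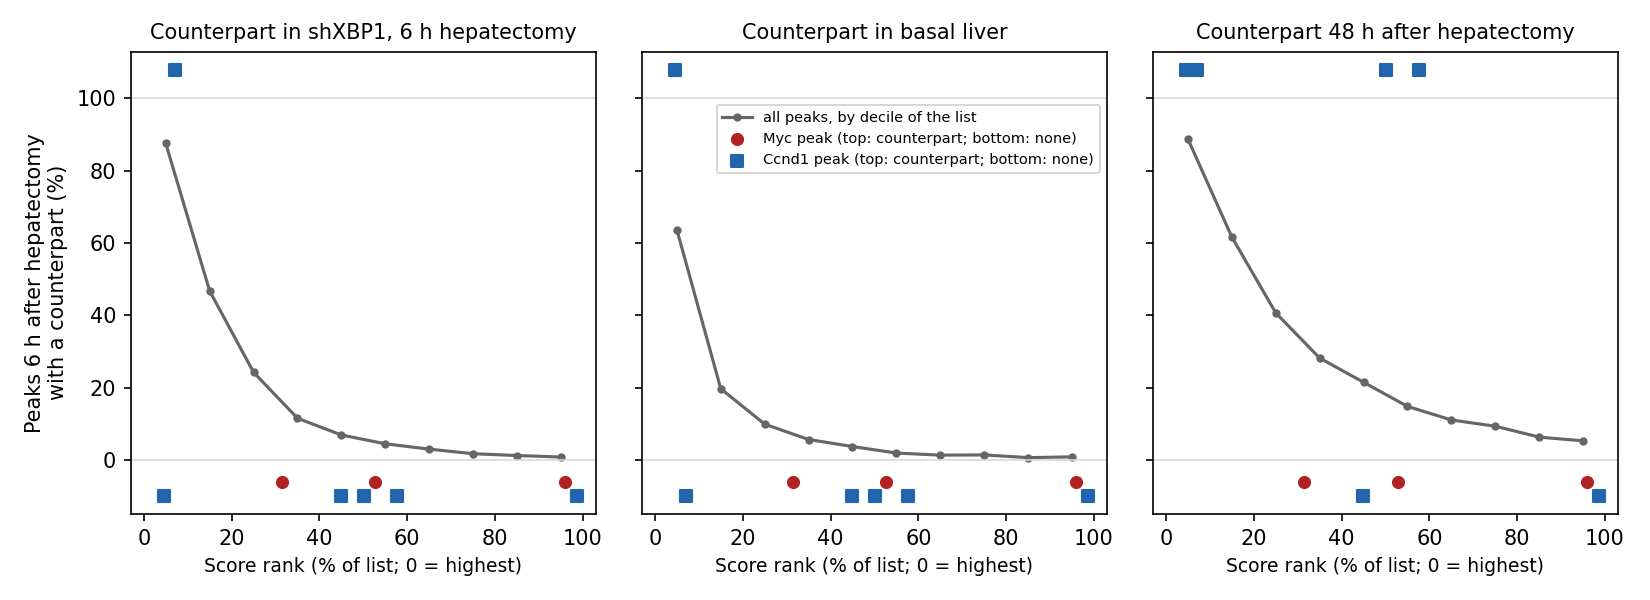
Percent of the peaks 6 h after hepatectomy that had a counterpart in silenced liver 6 h after hepatectomy (left), in basal liver (middle) and 48 h after hepatectomy (right), by decile of the list (line; 0 on the horizontal axis is the highest score). Each Myc or Ccnd1 peak is drawn at its rank, above the line at 100% where it had a counterpart and below 0% where it had none; the Ccnd1 peak at 4.67% has none in silenced liver, where 87.6% of its decile had one.

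The silenced livers were set beside unsilenced ones of the same state. An effect of silencing cannot be told apart from that of virus, clodronate or sequencing depth. Each state had 1 library, and the labels do not state these treatments for unsilenced livers. In silenced liver 6 h after hepatectomy, 1 Ccnd1 peak and 0 Myc peaks were called, against 6 and 3 in unsilenced liver. The silenced peak lay on the 152114699 site (98.2% of all silenced 6 h peaks lay on an unsilenced one). Of the unsilenced peaks, 1 of 6 at Ccnd1 and 0 of 3 at Myc had a silenced counterpart, against 18.9% of the whole list. Among windows with at least 3 unsilenced peaks 42.8% held no silenced peak, and among those with at least 6 peaks 58.8% held at most 1. The counts at both genes are near what the whole list showed.

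The highest Ccnd1 peak 6 h after hepatectomy, at 152129087 to 152129621, was without a counterpart in silenced liver, whose nearest peak lay 13.3 kb away. It belongs to 1045 peaks with the same or a higher score, of which 1008 (96.5%) had a silenced counterpart and 37 had none. Of the 894 of these peaks that were also called in basal liver, as this one was, 25 had no silenced counterpart. The lower-ranked Ccnd1 peak at 152114699 overlapped a silenced peak by at least 1 bp, as did 92.9% of the peaks with its score or higher. Where 50% of each peak had to overlap, or the midpoints to lie within 250 bp, 0 of the 6 Ccnd1 peaks had a silenced counterpart. The share of all peaks under these rules is not given here. At the 152114699 site the unsilenced peak was 1301 bp wide and the silenced one 345 bp, too narrow to cover 50% of it. Their midpoints lay 264 bp apart.

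In basal liver the Ccnd1 peak had no counterpart after silencing, where 4.75% of all basal peaks had one. At 48 h after hepatectomy 0 of 4 Ccnd1 peaks had a counterpart after silencing, where 0.915% of all peaks had one. Since these silenced lists held 177 and 102 peaks, the absence of a member is the usual outcome there. They are also the lists with the smallest median peak widths, and the cause of that was not tested.

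Among all windows, 34 had the same number of peaks as Myc in each of the 8 lists. By the best rank 6 h after hepatectomy, the first lay on chromosome 17 (25320001 to 25380000), chromosome 9 (54660001 to 54720000) and chromosome 4 (105840001 to 105900000). No window matched Ccnd1 in all 8 lists, and 2 differed by 1 peak in sum: chromosome 14 (65940001 to 66000000), with 6 sham peaks at 6 h, and chromosome 12 (72060001 to 72120000), with 3 hepatectomy peaks at 48 h. The next named, on chromosome 19 (8940001 to 9000000), differed by 2, with 2 peaks each in basal and in silenced 6 h liver. Likeness is a sum of differences in peak number over 8 lists, and the genes of these windows were not looked up.

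The gene table used for names is of GRCm38.p6, another build than that of the peaks, so no peak was placed at a promoter, exon or intron. By gene order in that table, Myc lies between Gm18788 and Pvt1, and Ccnd1 overlaps LTO1 and is followed by Gm46023. A peak in a window may belong to such a neighbour, and other genes of the cell cycle were not analysed here for the same reason.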

How the data were processed

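XBP1 ChIP-seq peaks of 8 mouse liver libraries were analysed; the basal input was not used here. The submitters' processing notes name Bowtie2, MACS 1.4.2 and build mm9, without settings or the control used in peak calling. The score deposited by the authors for each peak was read as the −log10 of a p-value because its lowest values lay near 5 (4.33 to 5.27 over the lists). No header states it. The highest scores, 33.67 to 828.25 over the lists, were not weighed in this reading, so the scale is not settled. Ranks within a list do not depend on it. Groups came from sample titles. Coordinates are 1-based.

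Peaks, sites and windows were counted with pandas 2.3.3, SciPy 1.17.1 and NumPy 2.4.6 under Python 3.11.15 and drawn with matplotlib 3.10.9. Peaks of different lists that overlapped by at least 1 bp were counterparts. Counting was checked on simulated lists against bedtools 2.31.1. All Myc and Ccnd1 peaks were named, as were up to 3 windows per gene closest in peak number over the 8 lists (ties by best rank 6 h after hepatectomy). The members, windows and alternatives were chosen with earlier results of these data known. Alternatives were other window lengths, overlap rules, score thresholds, list lengths, merging of close peaks, shifted windows and rank by width. Tissue markers were not checked, for want of an mm9 annotation.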

Additional observations from a re-analysis of the deposited data

How the results depend on the processing

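Read depth, unknown here, limits every count of 0. No paired analysis was possible because each condition had 1 library. Counts of peaks moved by no more than 1.5 times under any overlap with the window and under merging of peaks within 500 bp. Merging left 3 Myc and 5 Ccnd1 peaks in each 6 h list, so the differences in number between the operations at 6 h did not remain. A window of 120 kb gave 6 Myc peaks 6 h after hepatectomy and 1 at 48 h, and a window of 30 kb gave 2 Myc peaks 6 h after sham. With at least 2 times the lowest score of a list required, 3 Ccnd1 peaks stayed 6 h after sham, and 3 were shared between both operations at 6 h in either direction. Among the 2482 highest-scoring peaks of each list no Myc peak stayed at 6 h, and at Ccnd1 2 peaks stayed 6 h after hepatectomy and 1 each 6 h after sham, 48 h after hepatectomy and 48 h after sham. Where 50% of each peak had to overlap, the counterpart of the silenced Ccnd1 peak was lost (0 in both directions), as it was with midpoints within 250 bp. The silenced peak, 345 bp wide, could not cover 50% of its counterpart of 1301 bp. Under the 50% rule 1 Ccnd1 peak was shared between 6 h and 48 h, in both directions, after hepatectomy and likewise after sham. Shares of all peaks under these rules are not given here. Shifted windows moved no share beyond its 95% Clopper-Pearson interval. Over windows with a peak in at least 1 list, the 6 h share with at least the Myc number was 23.6% for hepatectomy and 14.6% for sham. The share with at least the Ccnd1 number was 18.3% in basal liver, 29.6% in silenced liver at 6 h, 4.07% for hepatectomy and 8.54% for sham at 6 h, and 1.03% for hepatectomy and 6.24% for sham at 48 h; fewer windows in the denominator raise it by construction. Ranked by width, the highest-scoring Myc peak stood at 59.5% of the 6 h list for hepatectomy and 41.1% for sham. The highest-scoring Ccnd1 peak stood at 9.31% in basal liver, 45.5% in silenced liver at 6 h, 30.5% for hepatectomy and 25.0% for sham at 6 h, and 40.9% for sham at 48 h. The cause of the other changes was not tested.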
